A study of Mus musculus with 2 samples.

Results

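Interferon-stimulated genes were examined in the gastrocnemius, a calf muscle, of 1 mouse whose Pdgfra-expressing mesenchymal progenitors were targeted for ablation and 1 control littermate. The set is a given list of 40 genes, and a probe belonged to it where the platform's annotation gave it the symbol of a listed gene. By this rule 42 probes and 39 of the 40 genes were found among the 18498 genes compared. The remaining gene, Ifi44, was not analysed here because no probe carried its symbol. The depleted mouse was Pdgfra-CreER:R26-DTA and the control Wild type:R26-DTA. Both were female, 10 weeks old, and received tamoxifen from 9 weeks of age on 5 days, with the muscle frozen 2 days after the last dose. In the depleted genotype tamoxifen activates a Cre recombinase made wherever the Pdgfra promoter is active, in any tissue of the mouse, and the recombinase unlocks a diphtheria toxin A gene placed at Rosa26. The control carries the silent toxin allele and no CreER by its label, so effects of CreER and of depletion cannot be told apart. The study asked which genes change in expression in muscle without these progenitors.

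Each group held 1 array from 1 animal. No test between the groups was possible, no p-value is given, and every difference may be one between 2 animals or 2 arrays. Values without further mention are the authors' processed intensities, on a linear scale, with the same median of 25 on both arrays. Log2 ratios are depleted over control and come from a separate normalization of the scanner intensities, called the main setting, which draws the ratios of dim genes toward 0. The label of the depleted mouse was met by Pdgfra itself, at 273.1 in control and 116.6 in depleted muscle (log2 ratio -0.94). Both arrays carried the signal of muscle, for example of the skeletal actin gene Acta1 at 65519.4 and 45415.0. In a piece of whole muscle, fewer cells of a type and less RNA per cell cannot be told apart.

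Interferons are secreted proteins that warn tissue of infection or cell damage. Type I interferons bind the receptor pair IFNAR1 and IFNAR2, and interferon gamma binds IFNGR1 and IFNGR2. The receptors' kinases JAK1, JAK2 and TYK2 phosphorylate STAT proteins. STAT2 acts with IRF9 in ISGF3, a complex that binds the interferon-stimulated response element in front of many target genes, and the gamma-activated site serves the response to interferon gamma. The products sense foreign nucleic acids, block translation, degrade RNA and trap viruses, and most nucleated cells can make them.

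The binding sequence was looked for in the members' promoters, since the rule for the members used no sequence. The RefSeq promoter table (GRCm38.p6), which gives 250 bases before and 50 bases after an annotated start site, held 29 of the 40 genes. The motif searched for the response element was GAAA, any 2 bases and GAAA again, on both strands. It was present in 15 of the 29 genes (51.7%), against 1079 of 27025 genes in the table (3.99%). The longer form that continues with CT was present in 9 of the 29 (31.0%) and in 0.303% of all genes. The motif for the gamma-activated site, TTCNNNGAA, was present in 8 of the 29 (27.6%) and in 9.55% of all genes, and 5 members held both. In Bst2 and Ifitm3 a match of one motif overlapped a match of the other. A match is a description of the letters, not a site shown to be bound. The matches of members with high and with low ratios are set out here for comparison, each with 6 flanking bases, 5′ to 3′ on the strand that reads as the motif is spelled, with the motif in capitals.
Ifit1 (chr19:34640779-34640800, minus strand): agactgGAAAGTGAAActgaag
Ifit1 (chr19:34640798-34640819, minus strand): cagtgaGAAACTGAAActgaga
Ifit3 (chr19:34583367-34583388, minus strand): gaagagGAAAGTGAAActtacc
Ifit3 (chr19:34583401-34583422, minus strand): aaagtaGAAACTGAAAcagact
Rsad2 (chr12:26456557-26456578, plus strand): ttttctGAAAATGAAAgttgga
Stat2 (chr10:128270270-128270291, minus strand): ggaaagGAAACTGAAAccaggg
Gbp2 (chr3:142620598-142620619, minus strand): gacagtGAAAGTGAAActaaaa
Isg15 (chr4:156200875-156200896, minus strand): gaaaagGAAACCGAAAcagaaa
Eif2ak2 (chr17:78882539-78882560, minus strand): cgccggGAAAACGAAAcagaag
Ifih1 (chr2:62646208-62646229, minus strand): agaatcGAAACAGAAAccgatc
Irf1, gamma-activated site motif (chr11:53769918-53769938, plus strand): cctgatTTCCCCGAAatgatg

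The 250 bases before the start site of 3 members, on the strand of the gene, show where the response elements lie. Here the capitals mark matches to the response element motif or to its reverse complement. Ifit1 and Ifit3 were the members with the highest ratios, and both carry a pair of separate matches. Ifitm3, with a log2 ratio of 0.25, also carries 2 separate matches, and Xaf1, with 0.59, carries none. Isg15 carries 3 overlapping matches in 1 run.
Ifit1 (chr19:34640639-34640888, plus strand): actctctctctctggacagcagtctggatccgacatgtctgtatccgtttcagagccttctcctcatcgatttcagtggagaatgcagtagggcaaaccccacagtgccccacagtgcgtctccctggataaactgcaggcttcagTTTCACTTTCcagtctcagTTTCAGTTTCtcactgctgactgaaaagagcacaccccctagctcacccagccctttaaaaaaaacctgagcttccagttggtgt
Ifit3 (chr19:34583279-34583528, plus strand): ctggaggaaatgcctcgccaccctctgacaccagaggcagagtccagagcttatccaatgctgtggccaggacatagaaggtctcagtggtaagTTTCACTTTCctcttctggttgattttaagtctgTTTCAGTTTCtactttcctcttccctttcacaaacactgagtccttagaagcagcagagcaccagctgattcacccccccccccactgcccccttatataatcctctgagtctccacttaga
Isg15 (chr4:156200819-156201068, minus strand): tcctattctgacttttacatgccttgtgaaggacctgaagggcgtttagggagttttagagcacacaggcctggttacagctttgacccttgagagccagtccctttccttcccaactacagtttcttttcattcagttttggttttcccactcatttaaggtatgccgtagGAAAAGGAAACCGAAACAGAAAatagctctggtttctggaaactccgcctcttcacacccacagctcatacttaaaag

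In Ifit1 the matches began 104 and 85 bases before the start site, and in Ifit3 156 and 122 bases before it. Matches after the start site were found in Ddx58, at 2 bases, in Ifitm3, at 2 and 19 bases, in Eif2ak2, at 18 bases, and in Ifih1, at 32 bases. The log2 ratios of these 4 genes were 0.53, 0.25, 0.04 and 0.01. The map of matches by gene shows all positions. Over the 28 compared members in the table, the 15 with a match had a median log2 ratio of 0.37 and the 13 without had 0.43. In processed values these medians were 0.54 and 0.87. All 28 were above 0 in the main setting. The 11 measured members outside the promoter table had a median of 0.37 in the main setting, and they included all 4 lower members.

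**Figure D1:**
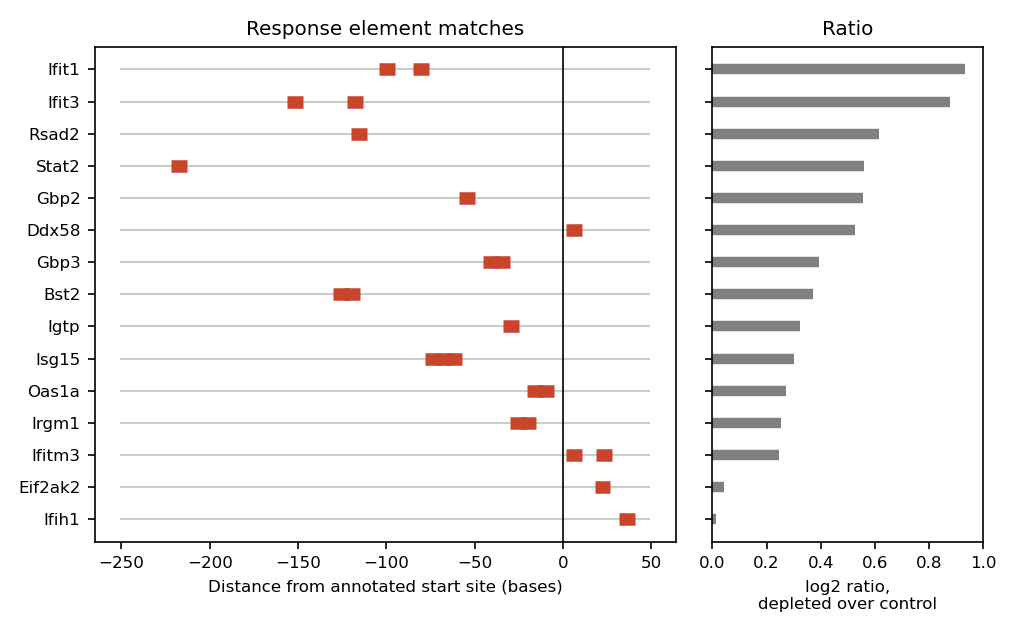
Left, position of each response element match (red; either strand) in bases from the annotated start site for the 15 members that hold one, with the grey line spanning the searched window; right, log2 ratio of depleted over control in the main setting (1 array each). Genes are ordered by ratio, from Ifit1 at 0.93 to Ifih1 at 0.01, and matches after the start site are seen in Ddx58, Ifitm3, Eif2ak2 and Ifih1.

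Interferon-stimulated genes were higher in depleted muscle almost throughout the list, by small amounts per gene. All 39 measured members were above background on both arrays. Of these, 35 were higher in depleted muscle, against 47.4% of all genes compared, and 4 were lower, against 52.4%. The median log2 ratio of the members was 0.39 (quartiles 0.25 and 0.56), and that of all genes was 0.00 (quartiles -0.06 and 0.06). At least 1.5-fold higher were 6 members, namely Ifit1, Ifit3, Iigp1, Usp18, Rsad2 and Xaf1, against a background of 1.96%. At least 2-fold higher in the main setting were 0 members, against 0.492% of all genes. At least 1.5-fold lower were also 0 members, against 1.52%.

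The authors' processed values, in which dim genes are not drawn toward 0, gave larger differences in the same direction. In these values 35 members were higher (background 48.2%), 26 were at least 1.5-fold higher (background 10.1%) and 14 at least 2-fold higher (background 3.3%), with a median log2 ratio of 0.78 against -0.01 for all genes. The unnormalized scanner intensities are the base of both. In these the members' median spot was 77.2 in control and 150.3 in depleted muscle, and the median of all probes was 53.3 and 59.8. The plot of levels by member shows the control point to the left of the depleted point in all but 4 genes.

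**Figure D2:**
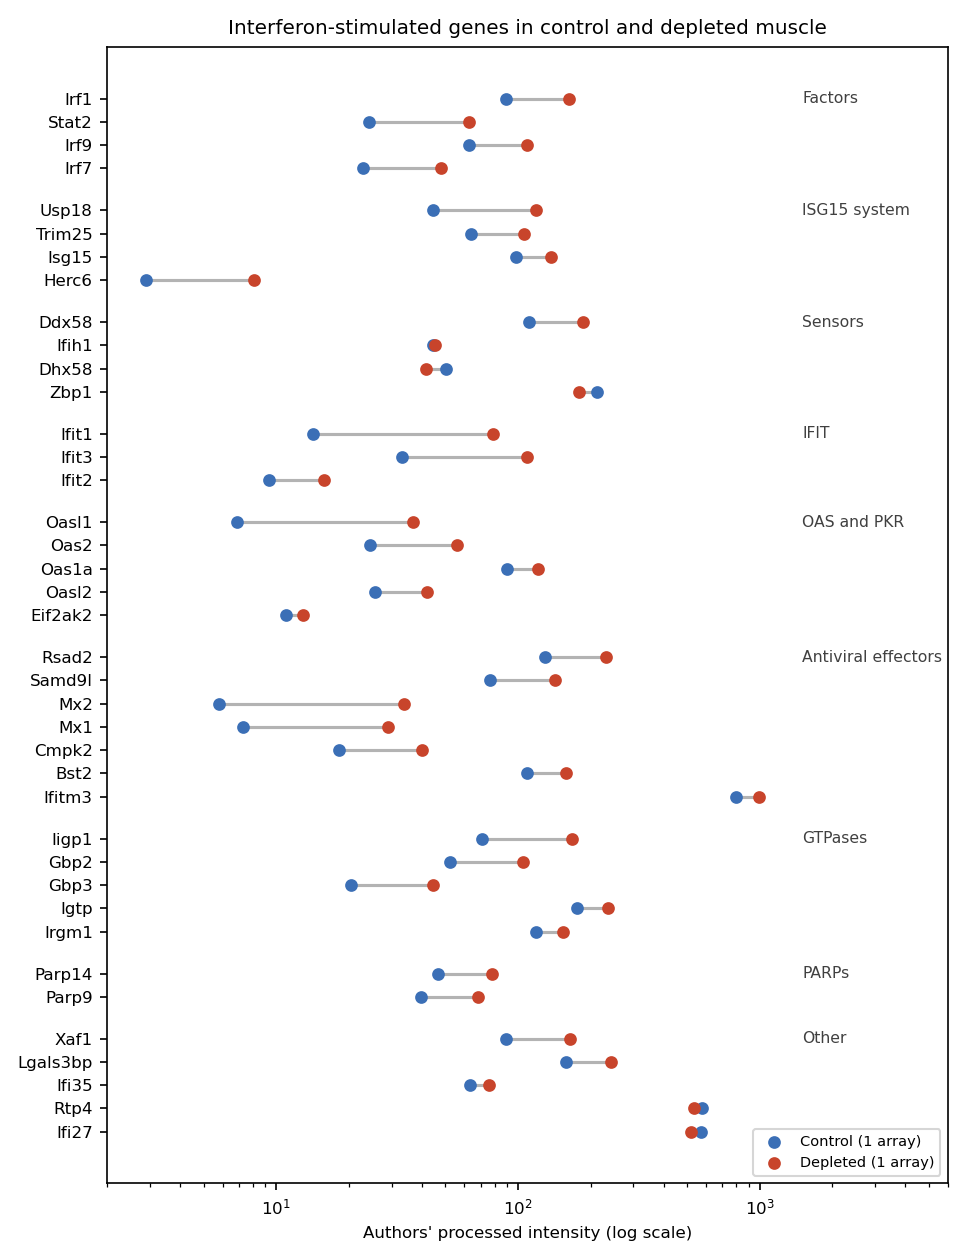
Authors' processed intensity (log axis) of the 39 measured interferon-stimulated genes in control (blue) and depleted muscle (red), 1 array each, grouped by role. Depleted points lie to the right of control points for 35 genes; Zbp1, Dhx58, Rtp4 and Ifi27 are the exceptions.

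The spread within an array was read from 24 replicate spots of each positive control. The SD of their log2 ratio in the main setting was 0.13 and 0.15. By the larger of these, 30 members were higher by more than 1 SD, 2 were lower by more than 1 SD and 7 lay within it. The share of all genes past 1 SD was not counted, so this split cannot be read as particular to the members. Quartiles of the log2 ratio were -0.06 and 0.06 for all genes. They were -0.20 and 0.18, both past 1 SD, for the brightest of 3 equal parts of genes by intensity. On the control array the positive controls had mean intensities of 850.6 and 5668.0, and the highest member spot was 665.7. The SD at the members' intensities is therefore not known. The spread of the positive controls covers spots on these arrays and not animals. The positive control spots themselves were brighter on the depleted array: their mean log2 ratio in the main setting was 0.60 and 0.47, and what they contain is not given in the sources used here. The negative control spots had mean ratios within 0.01 of 0. The members' median of 0.39 in the main setting lay below both positive control ratios. On the processed scale the positive controls' mean log2 ratios were 0.68 and 0.36. With 0.52 subtracted from every processed log2 ratio, to set the arrays equal on these spots, 27 members were higher. Their median log2 ratio was then 0.26, in place of 0.78, and that of all genes was -0.53, with 12.1% of genes higher. The alternative was made in processed values only, not in the main setting. This alternative was added after the values had been seen, and the part of the control spots' difference in the members' ratios was not tested.

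Intensity and ratio are linked on these arrays, so members were also set beside genes of like intensity. Genes were split into 3 equal parts by intensity, and 20 members fell in the bright part, 18 in the middle part and 1, Herc6, in the dim part. In the bright part 17 of 20 members were higher, against 48.7% of genes, the members' median was 0.45 against -0.01 for all genes, and 4 members were at least 1.5-fold higher against 5.09%. In the middle part 17 of 18 members were higher, against 46.6%, the median was 0.38 against -0.01, and 2 members were at least 1.5-fold higher against 0.795%. With each array scaled to its median in place of quantile normalization, the median of the bright genes was 0.22 and that of the bright members 0.59. In that setting 38 members were higher (background 45.5%) and 13 at least 1.5-fold higher (background 4.84%). Of the 20 bright members, 20 were higher there, against 77.8% of bright genes, and 10 at least 1.5-fold higher, against 13.4%. Rtp4, Ifi27 and Zbp1 were above 0 in that setting. The plot of ratio against intensity shows the members beside all genes.

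**Figure D3:**
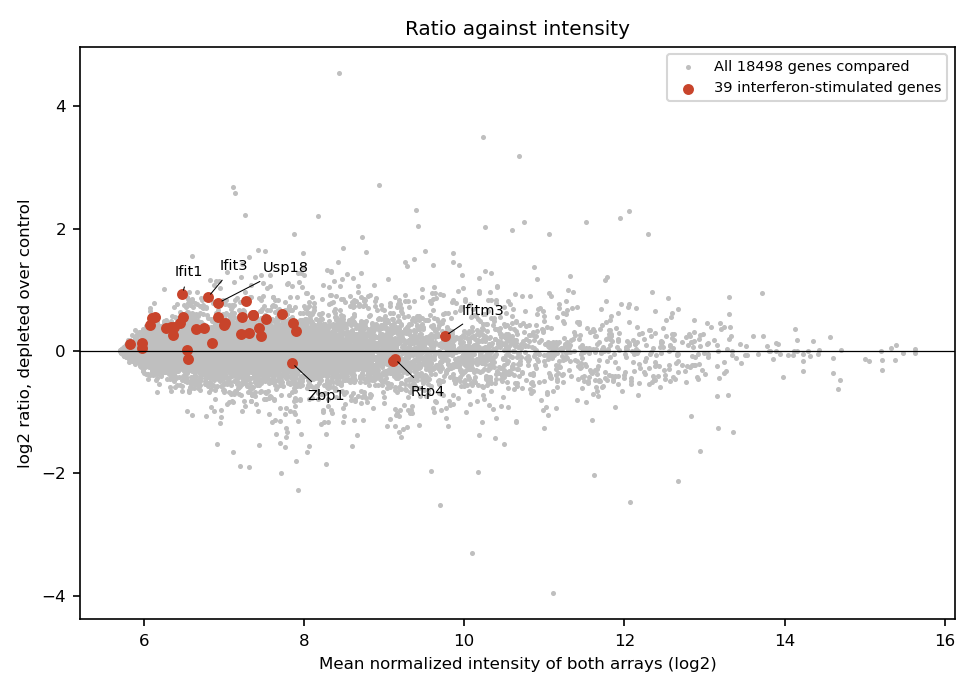
Log2 ratio of depleted over control in the main setting against the mean normalized intensity of both arrays (log2), for all 18498 genes compared (grey) and the 39 interferon-stimulated genes (red). Of the red points 35 lie above 0, from 0.01 to 0.93, and 4 lie below, down to -0.19.

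The factors that carry the interferon signal were all higher. Stat2, a subunit of ISGF3, was at 24.2 in control and 62.8 in depleted muscle, a log2 ratio of 0.56. Irf9, the DNA-binding part of ISGF3, was at 62.8 and 108.7 (0.46). Irf7, which amplifies the type I interferon response, was at 22.8 and 47.9 (0.40). Irf1, a transcription factor induced early by interferon gamma, was at 88.9 and 162.8 (0.58). In processed values the 4 differed by 1.73-fold for Irf9 up to 2.60-fold for Stat2.

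The ISG15 system tags proteins with a ubiquitin-like modifier. Isg15, the modifier itself, was at 98.5 in control and 136.3 in depleted muscle (log2 ratio 0.30). Usp18, which removes ISG15 and also restrains the type I receptor, showed a larger difference, at 44.6 and 118.5 (0.79). Trim25, a ubiquitin ligase that acts with the RNA sensor RIG-I, was at 63.6 and 106.3 (0.43). Herc6, the ligase that attaches ISG15 in mice, was close to the blank spots, at 2.9 and 8.1, and its ratio was 0.12 in the main setting and 1.48 in processed values. All 4 genes were thus higher, and the ratio of Herc6 rests on a few units of intensity.

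Sensors of nucleic acids were the group with the least common direction. Ddx58, which encodes RIG-I, was higher, at 110.8 in control and 185.7 in depleted muscle (log2 ratio 0.53). Ifih1, which encodes the long-RNA sensor MDA5, was level at 44.4 and 45.5 (0.01). Dhx58, which encodes LGP2, a regulator of both, was at 50.3 and 41.7 (-0.13). Zbp1, a sensor of Z-form nucleic acids that can trigger necroptosis, was at 211.3 and 178.5, the lowest ratio of the members (-0.19). In this group 2 of 4 genes were higher and 2 lower.

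The IFIT genes, whose proteins bind foreign RNA and block its translation, held the largest ratios and also a small one. Ifit1 was at 14.2 in control and 78.7 in depleted muscle, a log2 ratio of 0.93 and a 5.54-fold difference in processed values. Ifit3 was at 33.0 and 108.6 (0.88; 3.29-fold). Ifit2 was dim on both arrays, at 9.3 and 15.7 (0.14; 1.69-fold). Ifit2 and Ifit3 are adjacent genes on chromosome 19 in the RefSeq table. This pair thus differed in ratio, though Ifit2 was dim and the main setting draws dim genes toward 0. Parp14 and Parp9, with 1 coding gene between them, both had a ratio of 0.37.

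The 2'-5' oligoadenylate synthetases switch on RNase L when they meet double-stranded RNA, and the OAS-like proteins act without that activity or beside it. Oas1a was at 89.9 in control and 121.5 in depleted muscle (log2 ratio 0.27) and Oas2 at 24.5 and 55.8 (0.47). Oasl1, which limits translation of Irf7, was at 6.9 and 36.7 (0.56; 5.32-fold in processed values). Oasl2 was at 25.7 and 42.0 (0.26). Eif2ak2, which encodes the kinase PKR that stops translation, was almost level at 11.0 and 12.9 (0.04). All 5 were above 0, with Eif2ak2 at the low end, as the plot of ratios by member shows.

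**Figure D4:**
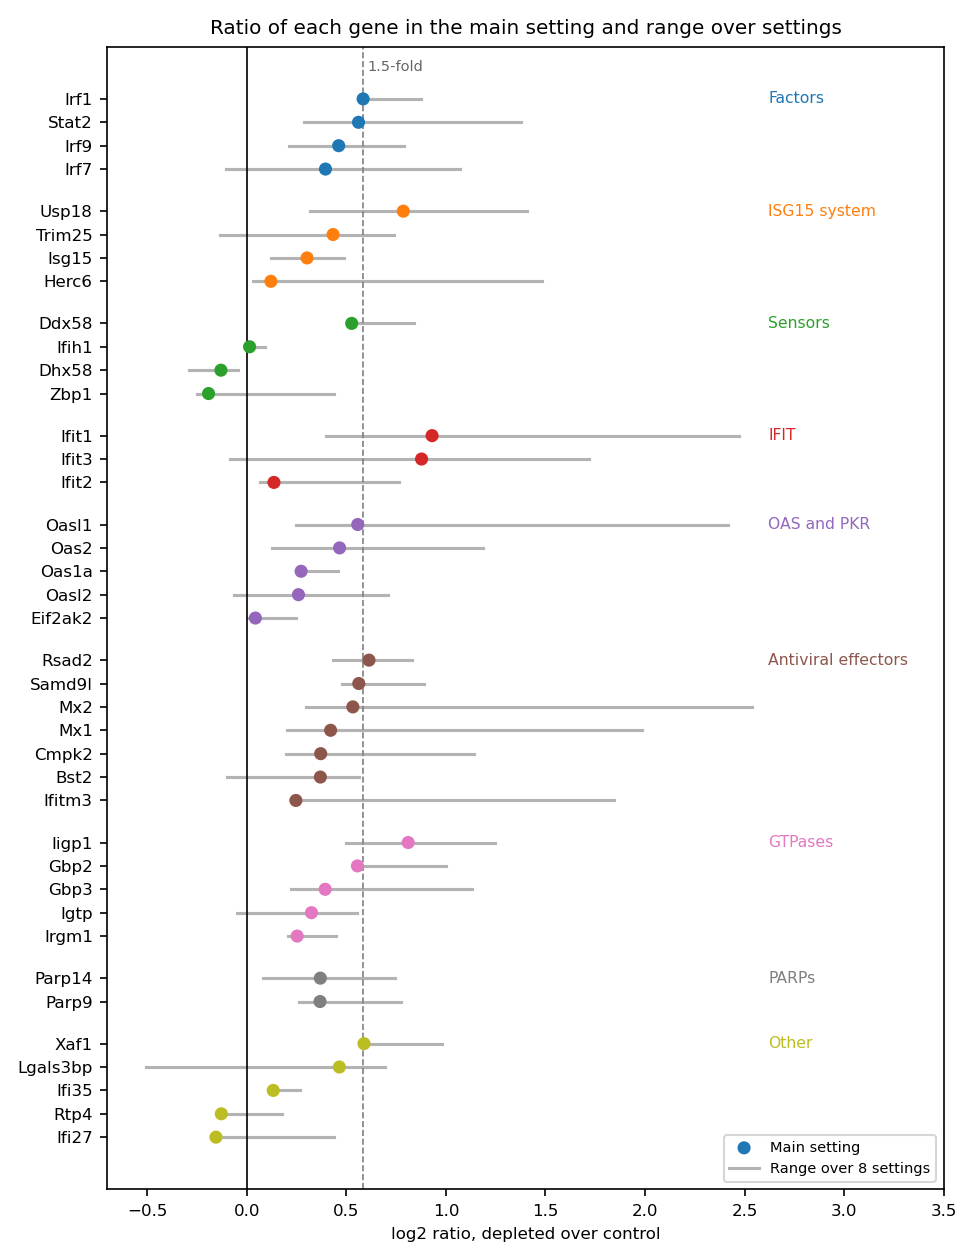
Log2 ratio of depleted over control for each measured member in the main setting (points, coloured by role) and the range over 8 settings of background correction and normalization (grey lines), 1 array per group. The ranges of 28 members stay above 0, and that of Dhx58 stays below it. The share of all genes with such ranges was not counted.

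Direct antiviral effectors were higher in 7 of 7 cases. Rsad2, which encodes viperin, an enzyme that makes a chain-terminating nucleotide, was at 129.9 in control and 230.5 in depleted muscle (log2 ratio 0.61). Its neighbour Cmpk2, a nucleotide kinase that supplies viperin's substrate, was at 18.2 and 40.1 (0.37). Samd9l, a translation inhibitor, was at 76.9 and 142.6 (0.56). The dynamin-like GTPases Mx1 and Mx2 were dim in control muscle: Mx1 was at 7.3 and 28.9 (0.42) and Mx2 at 5.8 and 33.7 (0.53; 5.81-fold in processed values). Bst2, the tether that holds virions at the membrane, was at 108.7 and 158.3 (0.37). Ifitm3, which blocks entry through endosomes, was at 801.0 and 991.0 (0.25). Of the 7 genes Rsad2 alone passed 1.5-fold in the main setting, and Mx1, Mx2 and Cmpk2 passed 2-fold in processed values.

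The interferon-inducible GTPases attack the vacuoles of intracellular microbes and respond most to interferon gamma. Iigp1 was at 70.7 in control and 167.5 in depleted muscle (log2 ratio 0.81). Gbp2 was at 52.2 and 104.4 (0.56) and Gbp3 at 20.3 and 44.5 (0.39). The regulators of this system, Igtp and Irgm1, were at 176.1 and 236.2 (0.32) and at 119.1 and 153.6 (0.25). All 5 were higher in the main setting.

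Parp9 and Parp14, members of the ADP-ribosyltransferase family, were at 39.8 and 68.2 (log2 ratio 0.37) and at 46.7 and 78.1 (0.37). Xaf1, which promotes cell death, was at 88.9 and 163.4 (0.59). Lgals3bp, a secreted glycoprotein, was at 157.9 and 242.1 (0.47), and Ifi35, a partner of NMI, at 63.3 and 76.0 (0.13). Rtp4, which restrains type I responses, was at 577.6 in control and 535.8 in depleted muscle (-0.13), and Ifi27, a mitochondrial protein, at 572.0 and 519.1 (-0.15). Rtp4 and Ifi27 were well above background on both arrays.

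Genes with several probes gave the same direction with each probe in the main setting. The dimmer probe of Igtp gave a log2 ratio of 0.50 beside 0.32, that of Mx1 0.18 beside 0.42 and that of Parp14 0.23 beside 0.37. After subtraction of the local background column the dimmer probe of Igtp was at 0.86 and the brighter at -0.05. Probes of the IFIT, OAS, GBP and MX families can share signal with near-identical relatives, so the level of each of these genes is uncertain.

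The interferon genes and their receptors showed no common direction. Of the interferon genes, 18 of 21 listed were measured, 9 were higher and 9 lower, with a median log2 ratio of 0.00, and 0 passed 1.5-fold. Ifnb1, which encodes interferon beta, was near the blanks at 3.7 in control and 5.6 in depleted muscle (0.04). Ifng, which encodes interferon gamma, was at 6.7 on both arrays (0.00). The largest difference among ligands was that of Ifna1, which was lower, at 95.6 and 58.3 (-0.41), and its relatives are near-identical in sequence. With scaling to the median 5 were higher and 13 lower, and with the local background column subtracted 12 were higher and 6 lower. Of the 18 genes 12 lay in the dim part of all genes, where 5.11% of genes were higher with scaling to the median.

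Of the receptors and kinases, 4 of 9 were higher and 5 lower, and the median log2 ratio was 0.00. With scaling to the median 6 were higher and the list's median was 0.11. Ifnar1 was at 37.5 in control and 57.9 in depleted muscle (0.28), and Ifnar2 at 51.0 and 52.6 (0.01). Ifngr1 was at 345.2 and 337.6 (-0.06), and Ifngr2 was lower, at 399.7 and 265.1 (-0.52). The kinases Jak2, Jak1 and Tyk2 had ratios of -0.29, -0.23 and 0.18. Among the other STAT and IRF factors 6 of 7 were above 0 with a median of 0.04. Stat3, which serves the interleukin-6 family as well, stood out at 231.2 and 415.7 (0.69), followed by Irf8 (0.11), Irf4 (0.11) and Stat4 (-0.06). Negative regulators of the pathway were higher in 6 and lower in 4 of 11 cases, with a median of 0.01. Subtraction of the local background column left 2 of the 11 higher and 9 lower, with a median of -0.13. In that setting 52.5% of all genes were higher. In the main setting the largest ratios of these regulators were those of Ptpn2 (0.49), Cish (-0.49) and Socs3 (-0.39), with Ptpn6 next (0.17). Cish and Socs3 are cytokine-induced inhibitors.

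Sensors and adaptors that lie upstream of interferon were higher in 15 of 19 cases, with a median log2 ratio of 0.07. The list held 22 genes, and Tlr9, Tmem173 and Mb21d1 were not measured because no probe carried their symbols. Trex1, an exonuclease that clears cytosolic DNA, was at 95.5 in control and 198.9 in depleted muscle (0.74). The DNA-binding Ifi202b was at 24.6 and 70.2 (0.64), and the adaptor Myd88 at 66.1 and 107.6 (0.41). Ifi205, a relative of Ifi202b, was lower, at 151.0 and 83.8 (-0.57). At least 1.5-fold higher were 2 of the 19, against 1.96% of all genes. With the local background column subtracted 13 of the 19 were higher, and the median was 0.02. Scaling to the median gave 11 higher and 8 lower, with a median of 0.17.

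Downstream genes outside the list leaned the same way as the members in the main setting. Of 69 further interferon-stimulated genes measured, 56 were higher and 13 lower, against 47.4% and 52.4% of all genes. Their median log2 ratio was 0.15, and 8 passed 1.5-fold upward and 0 downward, against 1.96% and 1.52%. With the local background column subtracted 41 were higher and 28 lower, with 52.5% of all genes higher, and the median was 0.03. In that setting 0 passed 1.5-fold upward, against 5.02% of all genes, and 3 downward. Ifi47, a GTPase of the Iigp1 family, was at 23.1 in control and 98.5 in depleted muscle (0.96). Phf11b and Plac8 had ratios of 0.83 and 0.79, and the inflammatory caspase gene Casp4 was at 21.8 and 78.8 (0.78). Genes of the immunoproteasome and of antigen presentation were higher in 17 of 18 cases with a median of 0.20. With the local background column subtracted they were higher in 12 of 18, with a median of 0.05. Psmb8, a catalytic subunit of the immunoproteasome, was at 116.5 and 310.5 (1.07), and the class I genes H2-K1, H2-Q7 and H2-T23 had ratios of 0.95, 0.91 and 0.78. Class I probes can share signal among loci. Of 5 chemokines induced by interferon, 4 were higher, led by Cxcl10 at 15.3 and 65.5 (0.76) and Ccl12, with a ratio of 0.40. Cxcl11 was lower (-0.27) and Cxcl9 higher (0.23). The plot of lists sets these groups beside the members.

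**Figure D5:**
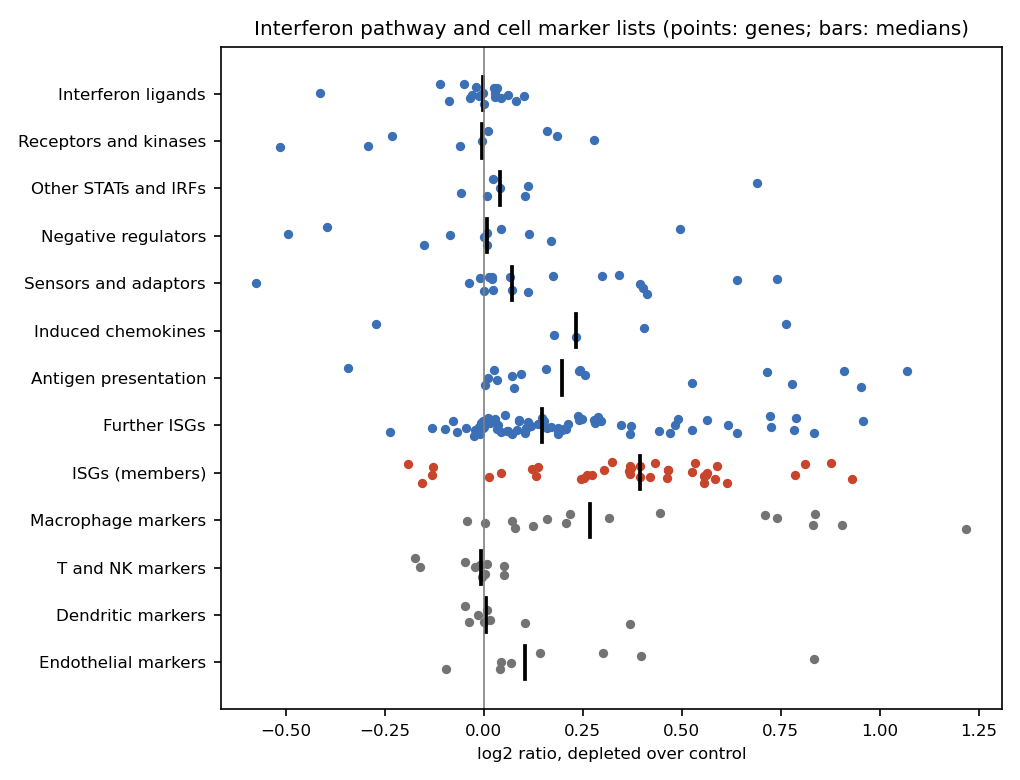
Log2 ratio of depleted over control in the main setting for each gene (points, jittered vertically) of the interferon pathway lists (blue), the interferon-stimulated genes described here (red; ISGs) and marker lists of other cells (grey), with list medians as black bars, 1 array per group. Ligands and receptors centre on 0, and the members' median of 0.39 is followed by macrophage markers at 0.27.

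Markers of macrophages and monocytes, cells that respond strongly to interferon, moved with the members. Of these markers 15 of 16 were higher, with a median log2 ratio of 0.27, and their processed values summed to 5719.5 in control and 9905.7 in depleted muscle. Lyz2, C1qc and C1qb were at 1.22, 0.91 and 0.84, while the monocyte receptor gene Csf1r was at 132.7 and 134.5 (0.00) and Adgre1, which encodes the macrophage surface protein EMR1, had a ratio of 0.12. Their part in the members' ratios was not tested. Markers of T and natural killer cells were dim and summed to 141.3 and 119.4 over 10 of 12 measured genes, of which 4 were higher. Among their defining genes Cd3e was at 2.2 and 2.6, and Cd3g was below background on both arrays. Dendritic cell markers summed to 170.4 and 222.8 over 8 of 9 genes. This list includes the member Bst2, which held most of that sum, and Siglech, which marks plasmacytoid dendritic cells, was at 21.3 and 19.3. B cell markers summed to 45.1 and 44.0 over 4 of 5 genes, and neutrophil markers to 360.9 and 345.0 over 6 genes. Endothelial markers summed to 1739.0 and 2063.9 over 8 genes, 7 of them higher. With the local background column subtracted 2 of the 8 endothelial markers were higher, with a median of -0.04. In that setting 12 of the 16 macrophage and monocyte markers were higher, with a median of 0.20. Muscle fibre genes were lower in 9 and higher in 2 of 12 cases, with a median log2 ratio of -0.10 in the main setting and -0.47 in processed values, and their processed values summed to 384012 and 274104. The part of this difference in the members' ratios was not tested. Mesenchymal progenitor markers were lower in 11 of 11 measured genes, and in 10 of 11 with scaling to the median.

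The local background column of the scanner files also moved with the members. It was higher on the depleted array by a median log2 ratio of 0.72 at the members' spots and of 0.14 over all probes. That column follows the spot's own signal, with a Spearman correlation across spots of 0.94 in control and 0.97 in depleted muscle, a description of spots that share an array. With the column subtracted, the members' median was 0.21 and 30 of 39 were higher, against 52.5% of all genes, while 3 were at least 1.5-fold higher (background 5.02%) and 1 at least 2-fold higher (background 2.12%). Ifit3 was at -0.08 there, Irf7 at -0.11, Lgals3bp at -0.51 and Ifitm3 at 1.85. Over 8 settings 28 members were above 0 in each, and 7 more were above 0 in each setting other than this one. The settings process the same 2 arrays and are not independent. The share of all genes above 0 in each setting was not counted, so these counts stand without a background.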

How the data were processed

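RNA of 1 control and 1 depleted muscle was amplified, coupled to Cy5 and hybridised to 1 array each, per the labels' protocols. Per the file headers, a spot's intensity is its median pixel at 635 nm, joined from 3 gains without background subtraction. The authors also deposited processed intensity values. Set against the scanner values, these are the spot minus about the mean blank spot, multiplied by 1.27 on the control and 0.939 on the depleted array, so their scale and direction are known and genes are not centred. No source used here names the image software or a genome build.

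In the main setting, intensities were corrected with normexp (limma 3.58.1, R 4.3.3, offset 50), log2-transformed and quantile-normalized across 23473 probes. A gene took its brightest probe. A probe was above background when it exceeded the mean of 2736 blank spots by 2 SD, a limit of 37.4 in control and 38.5 in depleted muscle. Compared were the 18498 genes above it on at least 1 array, with values below it raised to the lowest value above it. Medians and counts at 1.5-fold and 2-fold stand beside those of all genes. All 42 member probes matched the RefSeq table by Entrez gene. Motifs were searched with Python 3.11.15. Precision is limited by the number of arrays.

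Named were all measured members, the targeted gene, up to 4 genes of each pathway list by size of the ratio with the interferon receptors, Ifnb1 and Ifng, and up to 3 of each cell list. Csf1r, Adgre1, Cd3e, Cd3g, Siglech and Acta1 were named in addition as defining markers, after their values had been seen. Members and lists were chosen with earlier results of these data known. Tried in addition were a normexp offset of 16, uncorrected intensities, subtraction of blank spots or of the local background column, scaling to the median, cyclic loess, the processed values, 3 filters on dim genes, the mean of probes, a 3-fold threshold and a longer motif.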

Additional observations from a re-analysis of the deposited data

How the results depend on the processing

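No paired analysis was possible because there was 1 array for control and 1 for depleted muscle. The count of members above 0 (35) ranged from 30 to 38 under the alternatives other than the positive control scaling. That scaling was applied to the processed values, gave 27 and was chosen after seeing the data. The members' median of 0.39 was 0.59 with an offset of 16, 0.77 with blank spots subtracted and 0.21 with the local background column subtracted. It was 0.78 in processed values and 0.26 in processed values with positive controls set equal. Members at least 1.5-fold higher (6) numbered 20 with an offset of 16, 12 without background correction, 26 with blank spots subtracted, 3 with local background subtracted, 13 with scaling to the median, 26 in processed values and 12 with positive controls set equal. Members at least 2-fold higher (0) numbered 6, 2, 13, 1, 0, 14 and 5 in the same order. The share of all genes at least 1.5-fold higher, 1.96% in the main setting, was 3.23%, 2.31%, 8.91%, 5.02%, 4.84%, 10.1% and 2.48% in that order. At 2-fold it was 0.881%, 0.568%, 2.72%, 2.12%, 1.17%, 3.3% and 0.892%, against 0.492%. For all genes, scaling to the median gave 896 at least 1.5-fold higher and 125 lower, in place of 363 and 282, and moved the median of bright genes to 0.22. Ifit3, whose log2 ratio is 0.88, turned to -0.082 with the local background column subtracted, the 1 reversal among members at least 1.5-fold different. The longer motif gave 31.0% of promoters in place of 51.7%, by construction. The cause was not tested for the other differences. Cyclic loess, the filters and the mean of probes left the members' median and counts within 1.5 times, and 0 members passed 3-fold. Signal over background limits the dim members: the median probe lay 17.1 units above the blanks on the control and 22.8 on the depleted array.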

Other observations

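Genes outside the list that hold the response element motif were also read, chosen with their values in view. Of 555 compared genes with that motif in the promoter window, members left out, 16 were at least 1.5-fold higher in depleted muscle (2.88%) and 5 at least 1.5-fold lower (0.901%). Of 13910 without the motif, 269 were at least 1.5-fold higher (1.93%) and 208 lower. The difference between these shares was not tested. Of the 16 genes, 5 are in the interferon pathway lists: B2m, the light chain of class I molecules, at 3478.4 in control and 5819.4 in depleted muscle, H2-T23, Cxcl10, Phf11b and Tgtp2. Among the others, Ppp1r15a, which restores translation after stress, was at 55.8 and 294.2 (log2 ratio 1.63), and Glul, the glutamine synthetase, at 344.3 and 1069.2 (1.46). Ctss, a lysosomal protease of antigen-presenting cells, was at 117.5 and 370.0 (1.27), and Vldlr, a lipoprotein receptor, at 654.5 and 1673.2 (1.24). With the local background column subtracted the log2 ratio of B2m was -3.50 and that of Vldlr -0.84, while the other genes named here stayed higher.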
